A study of Mus musculus with 3 samples.

Results

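In this series, 9 genes of lung water and ion transport were followed across the cell types of the postnatal mouse lung, namely 4 water channels (*Aqp1*, *Aqp3*, *Aqp4*, *Aqp5*), the 3 subunits of the epithelial sodium channel ENaC (*Scnn1a*, *Scnn1b*, *Scnn1g*), the Na,K-ATPase subunit *Atp1b1* and the chloride channel *Cftr*. They were chosen by symbol as a functional group and are 9 of the 28692 genes in the count matrices. The study performed scRNA-Seq on whole-lung digests of 3 wild-type C57BL/6 mouse pups at postnatal day 14 (P14), all kept in room air from day 1. The pups, mice 2, 3 and 4, carried no allele or agent that set one apart from another, so they were replicates of 1 condition and every comparison below is between cell types of the same mice.

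Aquaporins are membrane channels that let water follow osmotic gradients. ENaC admits sodium across the apical membrane of an epithelium and needs its alpha (*Scnn1a*), beta (*Scnn1b*) and gamma (*Scnn1g*) subunits together for full activity, while the Na,K-ATPase pumps that sodium out across the basolateral membrane. In the lung, this transport clears fluid from the airspaces at birth and keeps them nearly dry afterwards, and CFTR carries chloride and bicarbonate. Alveolar type 1 (AT1) cells are the flat cells of gas exchange, alveolar type 2 (AT2) cells make surfactant, and club cells are secretory cells of the airway.

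Of 9644 deposited cells, 7642 were kept because they had 200 or more genes and no more than 20% mitochondrial UMIs (unique molecular identifiers, each standing for 1 captured RNA molecule). The kept cells held 66547233 UMIs, with 2386 to 2655 cells a mouse. Cells were clustered without the 9 genes and called by fixed markers as epithelial cells (1303 cells), endothelial cells (ECs; 960), stromal cells (1538) or immune cells (3023), and 818 cells were left unnamed. Within these classes, 21 types were told apart and 19 had at least 10 cells in every mouse. One of them, a stromal cluster of 100 cells, carried the markers of *Col14a1*-type fibroblasts but was led by *Dcn* and the cartilage genes *Col2a1*, *Col10a1*, *Col11a1* and *Acan*, and is called here the *Dcn*- and *Col2a1*-led cluster. All the markers of each type were above the other types by over 1 on the log2 scale, except 1 of 7 for dendritic-like cells. Mouse 3 stood apart in its make-up, with 55.1% immune cells against 29.2% and 33.7% in mice 2 and 4. The libraries shared 2 to 5 barcodes a pair, and the 201 marked doublets among the kept cells were retained. The club-like cluster (46 cells) was a mixture, since 27 of its cells carried at least 10 UMIs of ciliated-cell markers. In the first clustering, of all cells, a cluster of 96 cells (median 788 UMIs) had the club-like name. When epithelial cells were clustered again on their own, the name fell to the 46 cells (median 40832 UMIs). All other epithelial cells were then named AT1-like or AT2-like, so these types can hold shallow cells first grouped as club-like.

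The airway and alveolar epithelium held most of the RNA of 7 of the 9 genes. Epithelial cells, on average 17.1% ± 4.78 (SD, n = 3) of the cells, held 99.5% ± 0.902 of the *Aqp4* UMIs, 96.8% ± 1.65 of *Aqp5*, 93.9% ± 3.84 of *Scnn1a*, 97.1% ± 1.61 of *Scnn1b*, 96.8% ± 2.47 of *Scnn1g*, 85.9% ± 9.61 of *Atp1b1* and 94.5% ± 2.11 of *Cftr* (mean ± SD, n = 3 mice). The share of *Atp1b1* was lowest in mouse 3, at 74.9%, where a cluster of unnamed cells led by neuronal genes held 534 of its UMIs. *Aqp1* was the endothelial member, with 80.5% ± 4.64 of its UMIs in ECs and 13.8% ± 5.70 in epithelial cells. *Aqp3* was divided between immune cells, with 49.7% ± 2.72, and epithelial cells, with 49.3% ± 2.46. These shares depend on how many cells of each class were captured, and the levels by cell type below do not. Sums over a whole class, also compared below, still depend on its mixture of types, and the level of a type depends on its mixture of clusters. Of 2698 epithelial *Aqp1* UMIs, 2611 lay in AT1-like cells, and of 124 immune *Aqp3* UMIs, 90 lay in dendritic-like cells. Of 122 epithelial *Aqp3* UMIs, 94 lay in club-like cells.

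**Figure D1:**
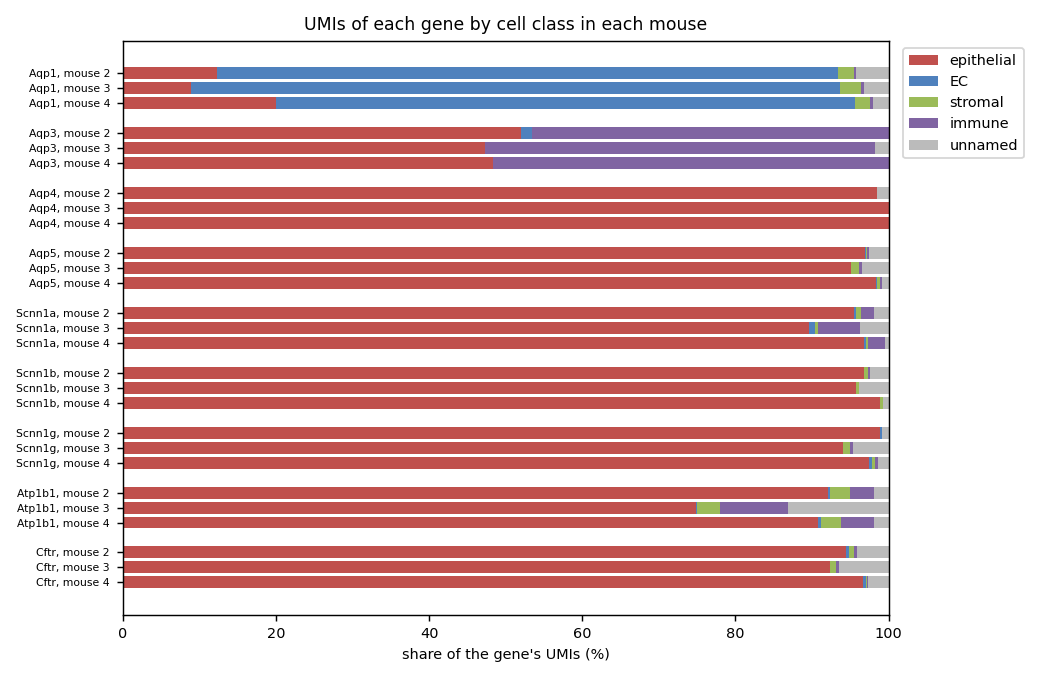
Share of each gene's UMIs (horizontal axis, percent) held by epithelial cells, ECs, stromal cells, immune cells and unnamed cells, with 1 stacked bar for each gene and mouse. On average, epithelial bars take up 85.9% to 99.5% of 7 genes, the EC bar takes up 80.5% of *Aqp1*, and *Aqp3* is split between epithelial and immune cells.

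UMIs were summed per mouse and class and compared with the quasi-likelihood test of edgeR, p-values being adjusted by Benjamini and Hochberg's method across 14200 genes (n = 3 mice, 2-sided, threshold 0.05). Against ECs, 8 of the 9 genes were higher in epithelial cells, where 32.6% of all genes tested were higher, and *Aqp1* was lower by 3.25 ± 0.27 (log2 fold change ± SE; adjusted p = 4.13e-08), where 33.9% of all genes were lower. Against stromal cells all 9 were higher, beside 31.3% of all genes higher and 35.9% lower, and against immune cells 8 were higher, beside 37.9% higher and 37.6% lower. The exception in the last comparison was *Aqp3*, whose log2 fold change was -0.41 ± 0.35 with an adjusted p of 0.297. It passed the threshold without mouse 3 (-0.88, adjusted p = 0.0324) and under a stricter filter on cells, which kept those with 500 genes or more and 10% mitochondrial UMIs or less (-2.87, adjusted p = 3.60e-05). The median log2 fold change of the 9 genes was 7.66 against ECs, beside -0.05 for all genes tested. Several of these folds have an empty denominator. *Aqp4* had 0 UMIs in ECs, stromal cells and immune cells. It was thus at least 25.0-fold, 45.4-fold and 35.9-fold higher in epithelial cells (bounds from 3 counts over the group, mice pooled). *Scnn1b* had 0 UMIs in ECs and was at least 144-fold higher in epithelial cells. *Aqp3* had 0 UMIs in stromal cells, against 122 in epithelial cells (94 of them in club-like cells), and was at least 31.8-fold higher in the latter class. *Scnn1b* and *Scnn1g* had only 5 UMIs each in stromal cells. With 0 UMIs on the other side, a gene could only be called higher in epithelial cells. Such genes enter the counts and the median above, which are therefore not a like match for the shares of all genes.

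**Figure D2:**
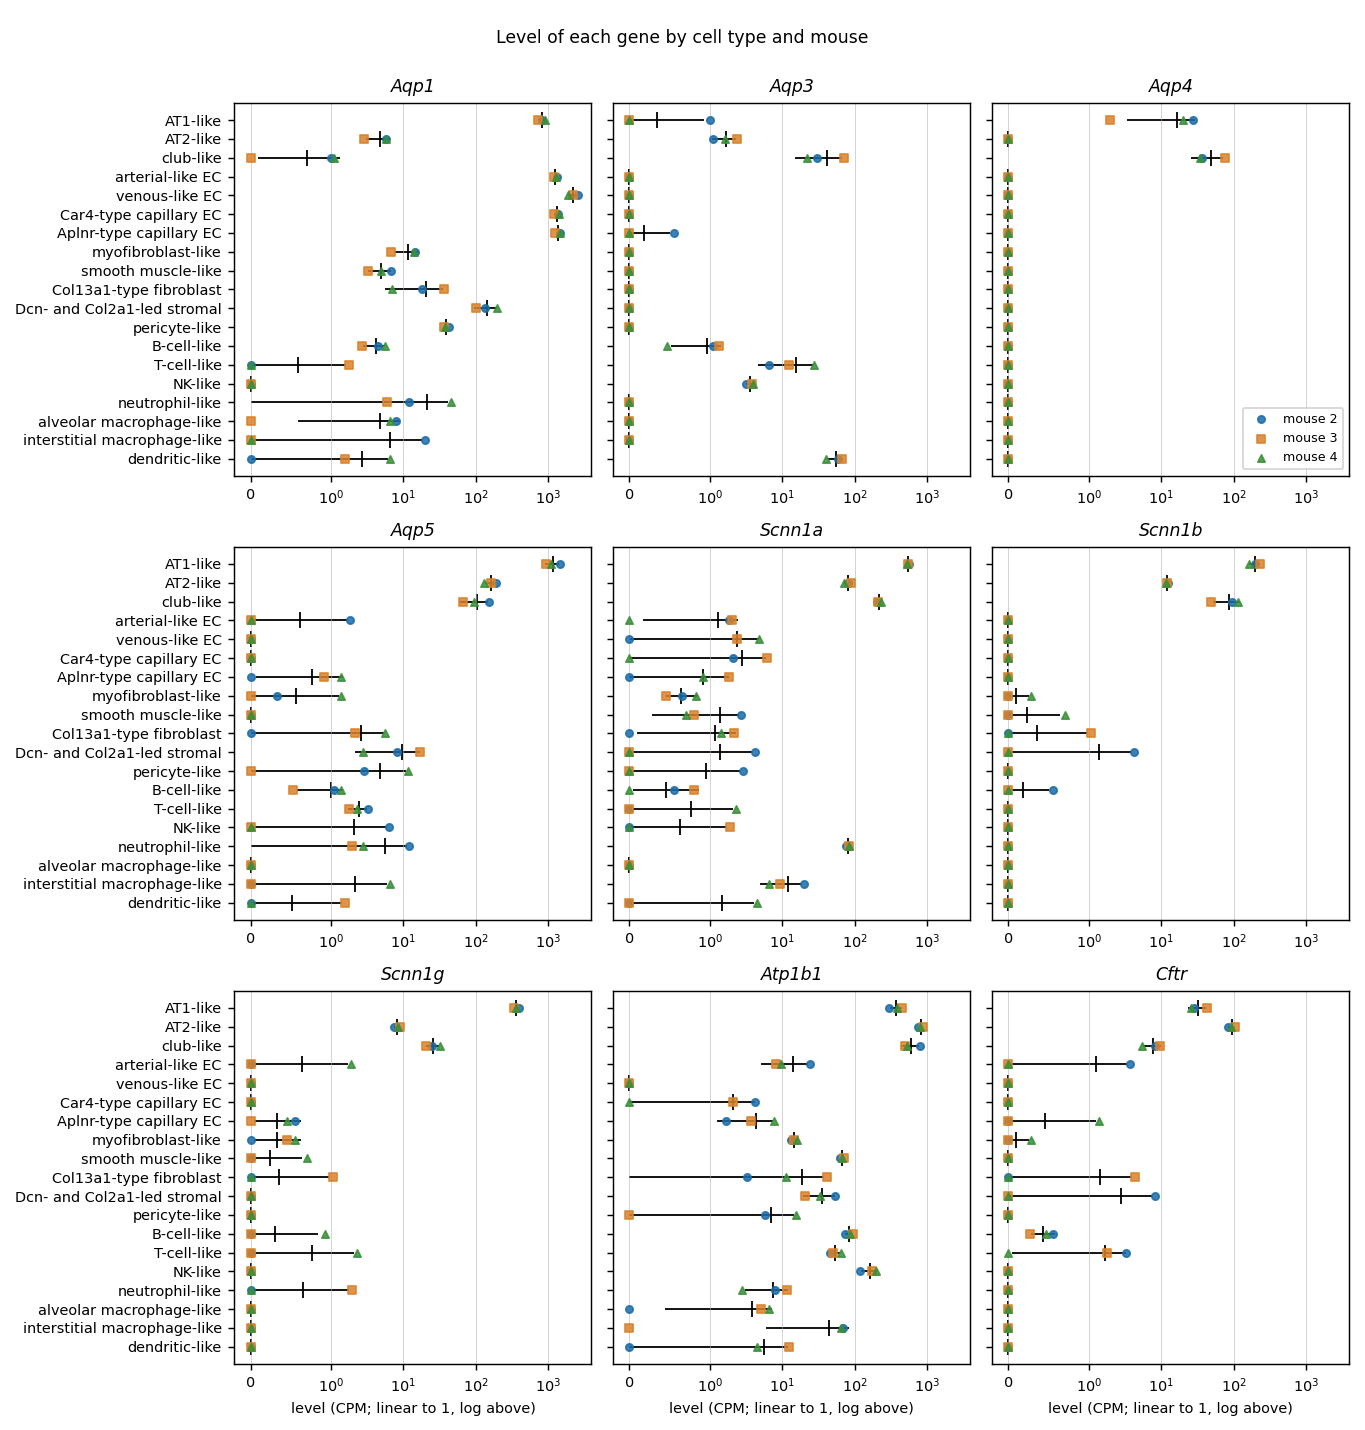
Level of each of the 9 genes in the 19 cell types with at least 10 cells in each mouse (horizontal axis in CPM, which is UMIs per 1000000 UMIs of the same cells; linear to 1 and log above). Coloured symbols are single mice, vertical ticks are means and horizontal bars are 1 SD (n = 3). The ENaC subunits, *Aqp5* and *Cftr* are highest in epithelial types, *Scnn1a* is also present in neutrophil-like cells (81.9 CPM), and *Aqp1* is highest in the EC types and AT1-like cells.

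Within the epithelium, the 3 ENaC subunits were highest in AT1-like cells, lower in club-like cells and lowest in AT2-like cells. The alpha subunit *Scnn1a* stood at 569, 547 and 526 CPM in the AT1-like cells of mice 2, 3 and 4. It stood at 202, 214 and 231 CPM in club-like cells and at 80.7, 88.7 and 72.5 CPM in AT2-like cells. The ranges of these 3 epithelial types did not overlap. The beta subunit *Scnn1b* stood at 196, 232 and 163 CPM in AT1-like cells, 96.3, 48.3 and 117 CPM in club-like cells and 12.4, 12.0 and 11.6 CPM in AT2-like cells. The gamma subunit *Scnn1g* stood at 394, 337 and 367 CPM in AT1-like cells, 25.3, 20.9 and 31.9 CPM in club-like cells and 7.38, 8.96 and 8.40 CPM in AT2-like cells. Again the ranges of the 3 types were separate, and outside the epithelium neither *Scnn1b* (mean of at most 1.39 CPM) nor *Scnn1g* (at most 0.771 CPM) had a type that stood clear of its neighbours. The AT1-like cells came from clusters of unlike depth. One of 101 cells (median 22009 UMIs) had 420, 366 and 441 CPM of *Scnn1g* and the other, of 73 cells (median 1195 UMIs), had 117, 42.9 and 67.1 CPM. Pooled over mice, the shallow cluster was also the lower one in *Scnn1a* (272 against 589 CPM), *Scnn1b* (63.0 against 206 CPM), *Aqp5* (544 against 1301 CPM) and *Aqp1* (366 against 932 CPM). *Atp1b1* (288 against 383 CPM) and *Aqp4* (8.99 against 21.3 CPM) were lower there too, whereas *Cftr* was higher (40.5 against 27.8 CPM). The part of depth in these differences was not tested.

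In the test across 13188 genes with all types in 1 fit, 15.4% of genes were higher and 18.7% lower in AT1-like than in AT2-like cells, and 6 of the 9 genes were higher and 2 lower. All 3 ENaC subunits were among those higher. So was *Aqp4*, which had 0 UMIs in AT2-like cells and could only be called higher. The log2 fold change was 2.41 ± 0.13 for *Scnn1a* (adjusted p = 6.92e-22), 3.64 ± 0.23 for *Scnn1b* (adjusted p = 4.09e-14) and 5.12 ± 0.17 for *Scnn1g* (adjusted p = 3.18e-24), each in 3 of 3 mice. Against club-like cells, 17.8% of genes were higher and 17.9% lower in AT1-like cells. Of the 9 genes, 6 were higher and 3 lower. *Scnn1g* was higher by 3.36 ± 0.20 (adjusted p = 6.42e-17) and *Scnn1a* by 0.93 ± 0.13 (adjusted p = 1.10e-07). The difference in *Scnn1b* was the smallest of the 3, at 0.67 ± 0.23 (adjusted p = 0.0212). It missed the threshold without mouse 2 (0.74, adjusted p = 0.0796), without mouse 3 (0.24, adjusted p = 0.401) and with DESeq2 in place of edgeR (0.59, adjusted p = 0.271). With no filter on cells, where 28 cells took the club-like name, it turned to -0.20 (adjusted p = 0.554). Between AT2-like and club-like cells, 20.5% of genes were higher and 18.7% lower in AT2-like cells, against 2 and 5 of the 9. *Scnn1a* (-1.48 ± 0.14), *Scnn1b* (-2.97 ± 0.25) and *Scnn1g* (-1.75 ± 0.26) were all lower, with adjusted p of 3.86e-13, 2.70e-11 and 8.05e-07. *Aqp4* was also called lower, but with 0 UMIs in AT2-like cells it could go no other way.

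**Figure D3:**
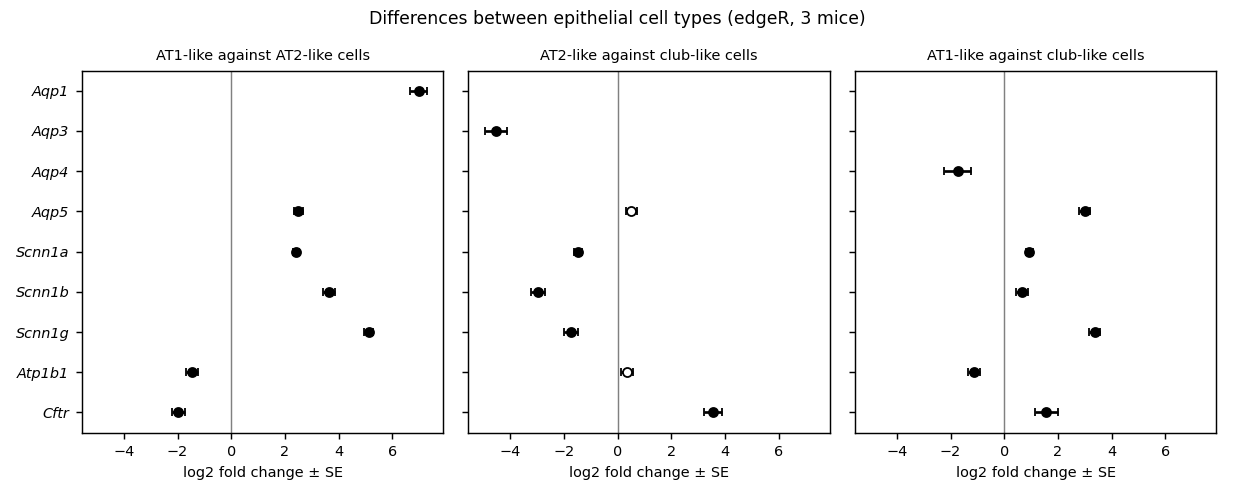
Log2 fold changes between epithelial cell types (horizontal axis) with bars of 1 SE from edgeR, n = 3 mice, where filled points have an adjusted p under 0.05 and open points do not. Genes with 3 or fewer UMIs in one of the types are left out of that panel. In the first panel *Aqp1*, *Aqp5* and the ENaC subunits lie on the AT1-like side, and *Atp1b1* (-1.48) and *Cftr* (-1.98) on the AT2-like side.

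The 3 subunits were also found in the same cells. Among cells with at least 3000 UMIs, a UMI of all 3 was present in 99 of 114 AT1-like cells (86.8%; median depth 20988.5 UMIs), in 16 of 46 club-like cells (34.8%; median 40832) and in 26 of 1023 AT2-like cells (2.54%; median 16208). B-cell-like cells, which should lack the channel, had 0 of 1477 (median 4244 UMIs), which allows a share of up to 0.203%. By mouse, the share in AT1-like cells was 89.7%, 78.9% and 87.5%, in club-like cells 42.9%, 23.1% and 36.8% and in AT2-like cells 2.39%, 1.98% and 3.04%. Thinned to 3000 UMIs a cell, the shares with all 3 were 30.4% in AT1-like, 0.877% in club-like and 0.114% in AT2-like cells, with 60 AT1-like, 60 AT2-like and 305 B-cell-like cells left out as shallower. The AT2-like share at that depth lies below the limit for B-cell-like cells, which was taken at their own depth. A difference between those types in the share with all 3 was thus not detectable. The shares with any subunit at 3000 UMIs were 24.5% in AT2-like and 0.267% in B-cell-like cells. Of all 1083 AT2-like cells, 59.3% had a *Scnn1a* UMI, 13.8% a *Scnn1b* UMI and 10.6% a *Scnn1g* UMI, beside 0.224%, 0.0561% and 0.112% of B-cell-like cells.

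**Figure D4:**
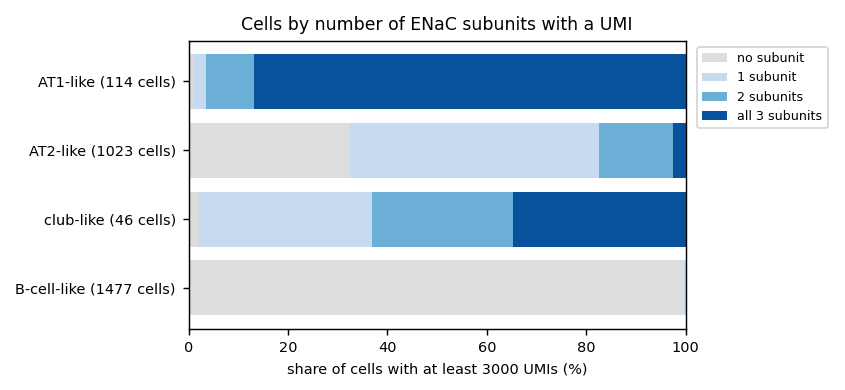
Share of cells with at least 3000 UMIs (horizontal axis, percent) that carried a UMI of none, 1, 2 or all 3 ENaC subunits, with 1 stacked bar for each cell type and the mice pooled. AT1-like cells carry all 3 in 86.8%, club-like cells in 34.8% and AT2-like cells in 2.54%, and nearly all B-cell-like cells carry none.

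*Scnn1g* and *Scnn1b* are neighbours on the plus strand of mouse chromosome 7 (GRCm38). *Scnn1g* lies at chr7:121734479-121768475 and *Scnn1b* at chr7:121865038-121918514, 96562 bp apart with 1 annotated gene between them, while *Scnn1a* lies on chromosome 6 at chr6:125320659-125344943. *Scnn1b* overlaps *Cog7* on the opposite strand. The 250 bases before the RefSeq start of the neighbouring pair, which had like patterns over the 19 types (Pearson's r = 0.959 of log2 CPM), and of *Aqp1*, whose pattern was endothelial, are given 5′ to 3′ (GRCm38.p6, plus strand). The r of the pair was close to that of each with *Aqp5* on chromosome 15 (0.925 for *Scnn1b* and 0.909 for *Scnn1g*), and further above that with *Scnn1a* (0.841 and 0.843). Capitals mark a GC box (GGGCGG or its complement) or, in *Scnn1g*, also the letters CAAGTG read on the opposite strand, the core recognised by the lung factor NKX2-1.
Scnn1g, chr7:121734229-121734478: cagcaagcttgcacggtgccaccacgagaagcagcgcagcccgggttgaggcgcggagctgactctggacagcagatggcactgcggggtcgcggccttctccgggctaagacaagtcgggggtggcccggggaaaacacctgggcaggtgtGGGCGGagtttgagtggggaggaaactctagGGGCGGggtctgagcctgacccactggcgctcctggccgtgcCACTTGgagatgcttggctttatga
Scnn1b, chr7:121864788-121865037: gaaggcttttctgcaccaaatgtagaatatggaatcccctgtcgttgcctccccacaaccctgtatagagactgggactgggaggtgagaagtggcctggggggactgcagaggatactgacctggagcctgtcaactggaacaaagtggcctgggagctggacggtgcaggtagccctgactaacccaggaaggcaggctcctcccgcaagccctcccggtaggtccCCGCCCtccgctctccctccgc
Aqp1, chr6:55336049-55336298: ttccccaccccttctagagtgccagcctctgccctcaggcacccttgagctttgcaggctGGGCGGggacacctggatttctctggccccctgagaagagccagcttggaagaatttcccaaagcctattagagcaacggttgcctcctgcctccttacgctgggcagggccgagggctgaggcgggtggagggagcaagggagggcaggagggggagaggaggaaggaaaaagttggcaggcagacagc

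The windows were also searched on both strands for TATAAA (the TATA box), CCAAT (bound by NF-Y), AGAACA (a half-site of the glucocorticoid receptor) and GGAATG (recognised by TEAD factors), and none of these was present in the 3 windows shown. The GC box is in 32.7% and CAAGTG in 11.6% of all 32841 windows of this length, TATAAA in 12.4%, CCAAT in 33.9%, AGAACA in 16.1% and GGAATG in 12.6%. *Scnn1g* had GC boxes 98 and 67 bases before the start and CAAGTG 25 bases before it, *Scnn1b* had 1 GC box at 22 bases and *Aqp1* 1 at 190 bases. TATAAA was present, of the 7 genes with a window, in *Aqp3*, 29 bases before the start. The windows of all 7 were richer in G and C (60.8% to 78.4%) than the median of all windows (52.4%), and the highest of these values belongs to *Aqp5*, whose window overlaps an annotated exon of the gene itself.

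*Aqp5*, the water channel used as an AT1 marker, stood at 1464, 946 and 1100 CPM in AT1-like cells. AT2-like cells had 189, 165 and 132 CPM and club-like cells 154, 66.0 and 94.7 CPM, so both lay far below AT1-like cells and overlapped each other. The log2 fold change was 2.50 ± 0.18 between AT1-like and AT2-like cells (edgeR, adjusted p = 5.97e-16) and 3.01 ± 0.21 between AT1-like and club-like cells (adjusted p = 2.23e-16). The difference between AT2-like and club-like cells was 0.50 ± 0.21, with an adjusted p of 0.0516, and 0.53 ± 0.16 with an adjusted p of 0.00526 when the mouse was kept as a block. *Aqp5* RNA was widespread in AT2-like cells: 770 of 1083 had a UMI (71.1%; median depth 16039 UMIs) against 7 of 1782 B-cell-like cells (0.393%; median 3959.5), and at 1000 UMIs a cell the shares were 14.5% ± 2.14 and 0.0979% ± 0.0235. AT1-like cells at that depth had 61.3% ± 4.48. Of the 19 types, the highest mean outside the epithelium was 9.47 ± 7.31 CPM, in the *Dcn*- and *Col2a1*-led cluster.

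*Aqp4*, a water channel of the basolateral membrane, was the rarest of the 9, with 175 UMIs in all kept cells. Club-like cells had 36.5, 75.7 and 34.1 CPM and AT1-like cells 27.4, 1.95 and 20.3 CPM, and the other 17 types had 0 UMIs. AT1-like cells of mouse 3 were the low value of their type, with 2.08% of the 48 *Aqp4* UMIs of that mouse. AT2-like cells had 0 UMIs in 1083 cells. With the mice pooled, *Aqp4* was at least 109-fold higher in AT1-like and at least 254-fold higher in club-like than in AT2-like cells. These bounds set 3 counts in AT2-like cells, leave out the counting error of the higher type and need not hold in each mouse. AT1-like cells were lower than club-like cells by a log2 fold change of -1.74 ± 0.49 (edgeR, adjusted p = 0.0092), a difference that missed the threshold without mouse 3 (-1.09, adjusted p = 0.0777) and turned to 1.70 (adjusted p = 0.0557) under the stricter filter on cells, where 284 cells took the club-like name. DESeq2 called none of its 3 differences between epithelial types.

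*Aqp1*, the water channel of capillary endothelium and red cells, lies at chr6:55336432-55348555. It stood at 2624, 2204 and 1903 CPM in venous-like ECs, 1463, 1256 and 1459 CPM in *Aplnr*-type capillary ECs, 1378, 1212 and 1400 CPM in *Car4*-type capillary ECs and 1314, 1204 and 1284 CPM in arterial-like ECs. Of these EC types with at least 10 cells in every mouse, venous-like ECs were the highest in each, and the ranges of the last 3 types overlapped. Against *Aplnr*-type capillary ECs, *Aqp1* was higher in venous-like ECs by 0.72 ± 0.22 (edgeR, adjusted p = 0.0200, 3 of 3 mice), where 13.1% of all genes were called in either direction. It missed the threshold without mouse 2 (0.62, adjusted p = 0.211), with the stricter filter on cells (0.76, adjusted p = 0.0721) and with coarser clusters (resolution 0.4; 0.64, adjusted p = 0.115). *Car4*-type and arterial-like ECs differed from *Aplnr*-type by -0.12 ± 0.22 and -0.12 ± 0.22 (adjusted p = 0.865 and 0.820), where 8.70% and 15.6% of genes were called.

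The arterial-like mean covered clusters of unlike level. One of 102 cells had 1702, 1679 and 2160 CPM of *Aqp1* in mice 2, 3 and 4, and the other, of 60 cells, had 631, 763 and 517 CPM. The 2 clusters did not overlap in any mouse. The *Aplnr*-type capillary clusters ranged likewise from 1784.56 CPM pooled over mice in the largest (259 cells) to 1002 CPM in the smallest (71 cells, of only 1972 median UMIs). These clusters were defined on other genes of the same cells, and their difference was not tested. Lymphatic-like ECs, of which there were only 23, had 928 *Aqp1* UMIs, or 2363, 3292 and 2151 CPM in mice 2, 3 and 4 (11, 7 and 5 cells). These levels were above those of venous-like ECs in mice 3 and 4, and 12 of the 23 cells were marked as doublets.

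**Figure D5:**
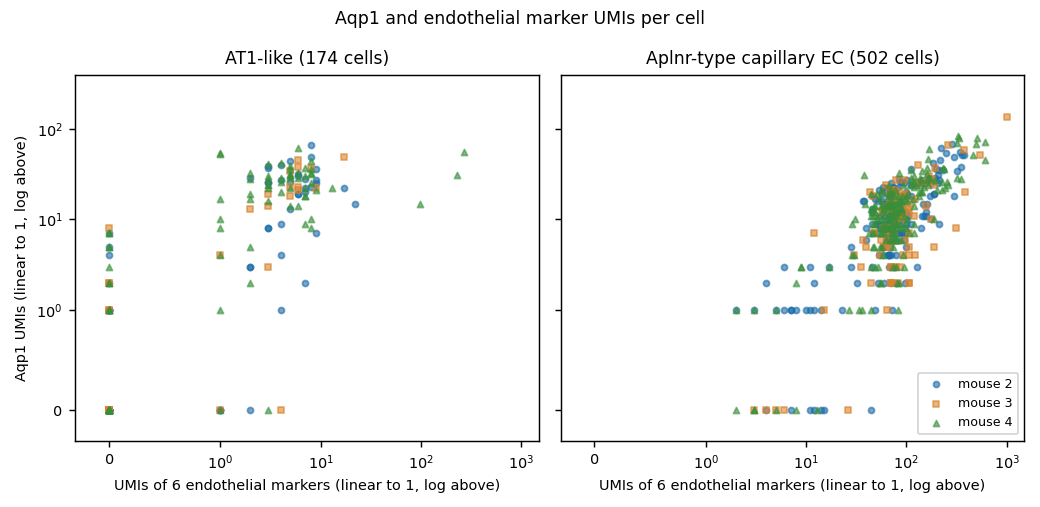
*Aqp1* UMIs (vertical axis) against the summed UMIs of 6 endothelial markers (horizontal axis) in single AT1-like cells (left, 174 cells) and *Aplnr*-type capillary ECs (right, 502 cells). Both axes are linear to 1 and log above, and symbols mark the mouse. AT1-like cells carry *Aqp1* at few endothelial-marker UMIs, with 2.28 *Aqp1* UMIs for each such UMI against 0.149 in the capillary ECs.

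Outside the ECs, AT1-like cells had the most *Aqp1*, with 820, 736 and 906 CPM, against 4.82 ± 1.72 CPM in AT2-like cells. The log2 fold change between them was 6.98 ± 0.31 (edgeR, adjusted p = 1.91e-25). Of 174 AT1-like cells, 128 had an *Aqp1* UMI (73.6%; median 14934.5 UMIs) against 28 of 1782 B-cell-like cells (1.57%), and at 1000 UMIs a cell these shares were 50.6% ± 4.81 and 0.468% ± 0.152. The AT1-like cells held 175 to 535 CPM of the 6 endothelial class markers, none of which was at 0, against 106 to 121 CPM in AT2-like cells. They carried 2611 *Aqp1* UMIs for 1146 UMIs of those markers, a ratio of 2.28, whereas *Aplnr*-type capillary ECs had 7234 for 48568, a ratio of 0.149. Among the 63 AT1-like cells with 0 endothelial-marker UMIs, 25 had an *Aqp1* UMI (39.7%), compared with 10 of 690 such B-cell-like cells (1.45%). Their pooled level was 450 CPM, and 328 CPM in the 9 of them with at least 3000 UMIs, against 850 CPM in all AT1-like cells. Without marked doublets, the pooled level in AT1-like cells was 920 CPM.

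The *Dcn*- and *Col2a1*-led stromal cluster came next at 135, 101 and 199 CPM of *Aqp1*, below AT1-like cells in all mice, and pericyte-like cells had 43.1, 36.9 and 38.3 CPM. The 200 UMIs of the cluster came from 26 of 100 cells, and the 31 of pericyte-like cells from 15 of 134. Cells without endothelial class markers had 160, 132 and 81.4 CPM in the cluster (75 cells). Such pericyte-like cells had 7.29, 24.9 and 52.6 CPM (73 cells, 7 UMIs). All other types had means of at most 21.0 CPM. Club-like cells had 2 *Aqp1* UMIs in 46 cells, and the call that AT2-like cells were higher (2.46 on the log2 scale, adjusted p = 0.0353) rests on these. It also rests on 85 AT2-like UMIs, 39 of them from a cluster of 66 shallow cells (median 600 UMIs). The AT2-like level (4.82 CPM) was close to that of B-cell-like cells (4.22 CPM). The log2 fold change turned to -3.69 under the stricter filter, where 284 cells took the club-like name. Between classes, *Aqp1* was higher in ECs than in stromal cells by 5.91 ± 0.31 (adjusted p = 3.12e-10; 24.8% of all genes were higher in ECs) and than in immune cells by 8.12 ± 0.37 (adjusted p = 3.44e-11; 34.1%). Erythroid genes, whose cells also carry AQP1, stood at 2.46 to 6.24 CPM in ECs and 0 to 0.636 CPM in AT1-like cells for 7 markers, of which *Alas2* and *Slc4a1* were at 0 in both.

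*Aqp3*, which passes glycerol as well as water, was highest in types other than the alveolar epithelial ones. Dendritic-like cells had 58.3, 66.6 and 39.8 CPM, club-like cells 30.4, 70.8 and 22.0 CPM and T-cell-like cells 6.48, 12.4 and 27.8 CPM. The first of these ranges overlapped the second and the second overlapped the third. The alveolar types had less, with 1.69 ± 0.633 CPM in AT2-like cells and 0.338 ± 0.586 CPM in AT1-like cells. *Aqp3* was lower in AT2-like than in club-like cells by 4.54 ± 0.42 on the log2 scale (edgeR, adjusted p = 1.05e-10), and AT1-like cells held 1 UMI against 94 in club-like cells. In club-like cells all 94 UMIs came from 6 of 46 cells.

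In dendritic-like cells, 25 of 182 had an *Aqp3* UMI (13.7%), namely 6, 11 and 8 in mice 2, 3 and 4, and they held 90 UMIs. Epithelial class markers, among which *Epcam* and *Cdh1* are known in dendritic cell subsets, were also present there at 59.7 to 215 CPM, and 9 of the 122 dendritic-like cells without any of those markers had an *Aqp3* UMI. Their level was 3.93, 36.9 and 41.9 CPM in mice 2, 3 and 4, so it was lower than in all dendritic-like cells in mice 2 and 3, and pooled it was 28.3 against 56.4 CPM. The *Aqp3* cells more often carried *Cd209a* (20 of 25 against 44 of 157 of the others) and *Mgl2* (23 of 25 against 47 of 157), and less often *Irf8* (3 of 25 against 79 of 157) and *Clec9a* (2 of 25 against 63 of 157). They also more often carried *Cdh1* (12 of 25 against 18 of 157), and *Epcam* was in 6 of 25 against 23 of 157. *Ccr7* (2 of 25 against 10 of 157), *Fscn1* (2 of 25 against 13 of 157) and *Cd207* (2 of 25 against 14 of 157) had like shares in both. *Cd209a* and *Mgl2* mark conventional type 2 dendritic cells and *Irf8* and *Clec9a* type 1 cells or, for *Irf8*, plasmacytoid cells. These genes were chosen after their values were seen, the comparison has no test, and the *Aqp3* cells were deeper (median 14275 against 7960 UMIs).

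*Atp1b1*, the beta 1 subunit that the sodium pump needs to reach the membrane, ran opposite to ENaC in the alveolus. AT2-like cells had 763, 887 and 810 CPM, club-like cells 793, 502 and 525 CPM and AT1-like cells 300, 446 and 388 CPM. AT2-like and club-like cells overlapped and AT1-like cells lay below both. The log2 fold change of AT1-like against AT2-like cells was -1.48 ± 0.23 (edgeR, adjusted p = 3.35e-07), and against club-like cells -1.13 ± 0.23 (adjusted p = 6.48e-05). AT2-like and club-like cells differed by 0.35 ± 0.22 (adjusted p = 0.209), and by 0.65 with an adjusted p of 0.00898 without mouse 2.

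*Atp1b1* was also present outside the epithelium. NK-like cells had 120, 174 and 200 CPM, with a UMI in 95 of 160 cells, B-cell-like cells had 73.1, 95.5 and 85.4 CPM, with a UMI in 354 of 1782 cells, and smooth muscle-like cells had 67.5 ± 4.22 CPM. Of the NK-like cells with no epithelial class marker, 90 of 151 had a UMI. ECs were low. *Atp1b1* was lower in ECs than in stromal cells by 2.64 ± 0.18 (adjusted p = 4.76e-09; 31.0% of all genes were lower) and than in immune cells by 4.05 ± 0.16 (adjusted p = 9.47e-12; 35.4%). Venous-like ECs had 0 UMIs. The 3′ end of *Atp1b1* (chr1:164437109-164458355, minus strand) overlaps *Nme7* on the opposite strand, and how strand was used in counting is not given in the sources used here.

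*Cftr* (chr6:18170687-18322768, plus strand) was highest in AT2-like cells. AT2-like cells had 83.2, 105 and 93.7 CPM, AT1-like cells 28.4, 42.8 and 26.1 CPM and club-like cells 8.11, 9.66 and 5.51 CPM. AT2-like cells were above AT1-like cells in all mice, and club-like cells were below both. *Cftr* was lower in AT1-like than in AT2-like cells by 1.98 ± 0.23 (edgeR, adjusted p = 1.08e-08) and higher in AT2-like than in club-like cells by 3.55 ± 0.32 (adjusted p = 2.24e-11). AT1-like cells exceeded club-like cells by 1.57 ± 0.42 (adjusted p = 0.00303). Under the stricter filter on cells, where 284 cells took the club-like name, the difference was -1.25 (adjusted p = 0.00116). It was found in 664 of 1083 AT2-like cells (61.3%) and 3 of 1782 B-cell-like cells (0.168%), or 9.01% ± 0.880 and 0.0311% ± 0.0151 at 1000 UMIs a cell. The AT1-like cells also carried 59085 to 77362 CPM of the 8 AT2 markers, against 200373 to 224367 CPM in AT2-like cells; the part of this in the AT1-like values of *Cftr* and *Atp1b1* was not tested.

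The club-like cluster could be divided by ciliated-cell markers, at a limit of 10 UMIs set after seeing the data. The 19 cells under it held all 94 *Aqp3* UMIs and had 73.7 CPM of *Aqp4* (95% Poisson interval 57.8 to 92.6), 157 of *Aqp5* (134 to 184), 119 of *Scnn1b* (98.6 to 143) and 44.4 of *Scnn1g* (32.3 to 59.6). The 27 cells at or over it had 26.9 CPM of *Aqp4* (19.3 to 36.5), 80.7 of *Aqp5* (67.0 to 96.3), 74.1 of *Scnn1b* (61.1 to 89.1) and 15.1 of *Scnn1g* (9.56 to 22.6). *Scnn1a* and *Atp1b1* had the opposite order, with 134 (112 to 159) and 522 CPM (478 to 569) under the limit and 268 (243 to 296) and 691 CPM (650 to 734) over it. These intervals cover counting error only, and these groups, with 4 to 11 cells of a mouse in each, were not tested.

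Outside the epithelium, *Scnn1a* was present in neutrophil-like cells, which had 76.7, 84.6 and 84.4 CPM, a range that overlapped AT2-like cells. A UMI was found in 77 of 466 cells (16.5%), 17, 36 and 24 of them in mice 2, 3 and 4, with at most 4 UMIs a cell. At 1000 UMIs a cell the share was 9.06%, against 0.0673% in B-cell-like cells (own median depths 2127 and 3959.5 UMIs). Of the 451 neutrophil-like cells with no UMI of an epithelial class marker, 74 carried *Scnn1a* (16.4%). The partner subunits were not with it: *Scnn1b* had 0 UMIs and *Scnn1g* was in 1 cell. Interstitial macrophage-like cells had 19.7, 9.33 and 6.51 CPM of *Scnn1a*, but these values rest on only 4 UMIs in 114 cells. In the class comparison, *Scnn1a* was lower in ECs than in immune cells by 2.59 ± 0.33 (edgeR, adjusted p = 4.43e-06), but the difference was -0.89 (adjusted p = 0.0908) with cells of at least 3000 UMIs, a choice made after seeing the data, and -0.90 (adjusted p = 0.158) when each cell was given its class from its own UMIs. The median depth of neutrophil-like cells was 2127 UMIs.

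Other genes of the pathway were followed as fixed lists. Of 17 ENaC proteases and regulators, 3 were higher and 5 lower in AT1-like than in AT2-like cells (edgeR, adjusted p under 0.05), beside 15.4% and 18.7% of all genes, with a median log2 fold change of -0.20 beside -0.10 for all genes. The kinase *Sgk1*, which retains ENaC at the membrane, was higher by 2.67, *Wnk1* by 1.48 and the glucocorticoid receptor *Nr3c1* by 0.47. The protease *Tmprss4*, which cleaves ENaC, was lower (-2.20), as were *Wnk4* (-2.45), the mineralocorticoid receptor *Nr3c2* (-1.76), *Stk39* (-1.21) and *Tsc22d3* (-0.51). Across classes, 10 of 17 were higher and 4 lower in epithelial cells than in ECs, beside 32.6% and 33.9% of all genes, with the ENaC-activating protease *Prss8* at 8.57 and the inhibitors *Spint1* and *Spint2* at 7.24 and 5.55. *Sgk1* was lower in epithelial cells than in ECs (-4.92).

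The 6 FXYD regulators of the sodium pump that were tested are a part of a fixed list that also held other pump subunits. Of these 6, *Fxyd3* was higher in AT1-like than in AT2-like cells by 2.44 on the log2 scale and *Fxyd1* by 1.98 (edgeR, adjusted p under 0.05). The other 4 did not pass the threshold, beside 15.4% of all genes higher and 18.7% lower. Of 10 chloride channels and other transporters, 2 were higher and 4 lower in the same comparison, beside 15.4% and 18.7% of all genes. The calcium-activated chloride channel *Ano1* was higher in AT1-like cells by 3.45 and *Lrrc8a*, of the volume-regulated channel, by 0.55. *Slc26a9* (-2.14), *Kcnq1* (-1.50), *Slc4a4* (-1.05) and *Slc12a2* (-1.01) were lower, as *Cftr* was. *Slc26a9* is an anion transporter and *Slc12a2* loads chloride into cells. Of 8 other aquaporins listed, 3 could be tested, and 1 of them, *Aqp11*, was lower in AT1-like cells (-2.35), beside 18.7% of all genes. Between epithelial and immune cells 2 could be tested, and 1 was higher and 1 lower in epithelial cells, beside 37.9% and 37.6% of all genes. The lower one was *Aqp9*, a glycerol channel (-7.31), which stood at 40.8 ± 9.3 CPM in neutrophil-like cells.

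Genes whose levels were most alike to those of each member over the 19 types were named by Pearson's r of log2(CPM + 1), which describes types that share the same 3 libraries and has no test. *Scnn1g* was most like *Serinc2* (r = 0.971), 2310007B03Rik (0.969) and *Platr22* (0.968), and *Scnn1b* most like 2310007B03Rik (0.971), *Gyltl1b* (0.965) and *Shh* (0.965). *Scnn1a* was most like *Clic3* (0.927), which is also one of the AT1 markers used, *Panct2* (0.915) and *Pls1* (0.908). *Aqp5* was most like *Npw* (0.961), *H2-Q2* (0.958) and *Irx1* (0.953). *Aqp1* was most like the endothelial genes *Cdh5* (0.934), itself a class marker, *Ptprb* (0.917) and *Fgd5* (0.910). *Aqp4* was most like *Cyp2b10* (0.991), *Arhgdig* (0.965) and *Fam46b* (0.961), and *Aqp3* most like *Dyrk3* (0.900), *Kcnh3* (0.881) and *Cacna1s* (0.871). Among the 19 types *Aqp4* had UMIs only in club-like and AT1-like cells, so its r rests on these. The r of *Scnn1b* and *Scnn1g* rests mostly on the epithelial types, since both were near 0 elsewhere. *Cftr* was most like *Tmem116* (0.983), *Urah* (0.970) and *Mlc1* (0.966), while *Atp1b1* reached 0.847 with *Rgs11*, 0.837 with *Ttc38* and 0.836 with *Llgl2*.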

How the data were processed

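Whole-lung cells of 3 mice were run on 10x Genomics v3 chips, and the authors deposited UMI counts per gene and cell, made per the labels with Cell Ranger 3.0.2 and mm10. The series text states 5677 cells, while 9644 barcodes were deposited and 7642 passed the filter used here (at least 200 genes, at most 20% mitochondrial UMIs), since the study's own filter is not given in the sources used here. Depth was 22476491 to 25192427 UMIs a mouse, and kept cells had medians of 4853 to 7119 UMIs. Counts were normalised with sctransform 0.4.2 and clustered in Seurat 5.3.0 (30 components, resolution 0.8), leaving out the 9 genes and the listed pathway genes (60 in all). Clusters were named by markers. The naming thresholds and the splits of dendritic-like and club-like cells were set after seeing the data. Members and lists were chosen with earlier results of these data known.

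Raw UMIs were summed per mouse and type (at least 10 cells) and tested with edgeR 4.0.16 (glmQLFit, TMM, filterByExpr, Benjamini-Hochberg), without a mouse block. DESeq2 1.42.0, other normalisations, filters, resolutions, doublet removal, a mouse block and leaving out each mouse were alternatives. Cells with at least 3000 UMIs were added after seeing the data. Same-mouse deviations from class means correlated at 0.0950 to 0.408 over 18 pairs, and same-numbered sums come from the same animal. On simulated counts edgeR recovered 91.5% of 200 genes changed by 2 log2 units between epithelial cells and ECs (13608 genes) and 83.5% between AT1-like and AT2-like cells (11111 genes). The simulated counts had no effect shared by a mouse, left all other genes unchanged and changed no gene of low expected count. These rates therefore do not cover members with few UMIs in a group. All 9 genes are named, with the 3 genes most alike in pattern. Some genes of the lists are not reported here. Levels are CPM. Intervals are exact (95%). Promoter windows come from RefSeq (GRCm38.p6) and were used for 7 of the 9 genes.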

Additional observations from a re-analysis of the deposited data

Results flagged for a closer look

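The unnamed cells entered no comparison above, and several clusters among them held members at levels above those of B-cell-like cells, given here as pooled CPM with 95% Poisson intervals that cover counting error only. In a cluster of 147 dividing cells (*Top2a*, *Mki67*), *Aqp1* stood at 243 CPM (222 to 266), *Aqp5* at 66.8 (55.9 to 79.1), *Scnn1a* at 30.6 (23.4 to 39.3), *Scnn1b* at 10.0 (6.13 to 15.5), *Scnn1g* at 12.0 (7.72 to 17.9), *Atp1b1* at 230 (210 to 253) and *Cftr* at 37.7 (29.6 to 47.2). The upper bounds in B-cell-like cells were 5.56 CPM for *Aqp1*, 1.87 for *Aqp5*, 1.33 for *Scnn1a*, 0.723 for *Scnn1b*, 0.937 for *Scnn1g*, 94.3 for *Atp1b1* and 1.14 for *Cftr*. A cluster of 452 cells of low depth (median 845 UMIs) led by *Hpgd*, *Sox7* and *Epas1* had 140 CPM of *Aqp1* (107 to 179) and 8.88 CPM of *Aqp5* (2.42 to 22.7), the latter from 4 UMIs. *Aqp1* also stood at 58.4 CPM (19.0 to 136; 5 UMIs) in 31 cells led by *Pf4* and *Clec1b*, which held 852 to 5136 CPM of erythroid markers, and at 95.1 CPM (60.9 to 142) in a further unnamed cluster of 27 cells. In 161 cells led by the neuronal genes *Uchl1*, *Sncg* and *Tubb3*, *Atp1b1* stood at 1590 CPM (1460 to 1730), and 534 of its 538 UMIs came from mouse 3, so this value belongs to 1 animal.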

How the results depend on the processing

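The number of members called in either direction stayed within 1.5 times in the 8 comparisons of classes and epithelial types, and the folds of *Aqp1* between EC types kept their direction and side of the threshold except for venous-like ECs, which lost significance with the stricter filter on cells (0.76), at resolution 0.4 (0.64) and without mouse 2 (0.62; range 0.62 to 0.88 when each mouse was left out). Directions reversed in comparisons with club-like cells: with the stricter filter of 500 genes and 10% mitochondrial UMIs, *Aqp1* (-3.69) and *Aqp5* (-0.25) in AT2-like and *Aqp4* (1.70) and *Cftr* (-1.25) in AT1-like cells, and with no filter on cells *Aqp5* in AT2-like (-0.20) and *Scnn1b* in AT1-like cells (-0.20). Under the stricter filter, which only removes cells, the club-like name took in 284 cells, against 46. With no filter on cells it took in 28. The club-like groups of these settings thus differed in their cells, so the reversed values do not compare the same cells as the main fit. The cause of the reversals was not tested. The fitted difference of *Aqp1* between AT2-like and club-like cells (2.46, adjusted p = 0.0353) lost its call in 8 alternatives. It rests on 2 UMIs in club-like cells and 85 in AT2-like cells, 39 of the latter from a cluster with a median of 600 UMIs. With marked doublets left out, 47 of the 85 AT2-like UMIs remained.

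Numbered libraries are single animals, and with the mouse as a replicate block *Aqp5* in AT2-like against club-like cells (0.53, adjusted p = 0.00526) passed the threshold. *Aqp5* also became lower in ECs than in stromal cells (-1.89, adjusted p = 0.0246) and than in immune cells (-1.70, adjusted p = 0.0488), and the block changed no other call of the 9 genes, though *Scnn1g* between ECs and stromal cells, called in neither fit, turned from 0.01 to -0.0049. The share of *Aqp3* UMIs in immune cells ran from 45.3% to 77.6% over the alternatives. With the level of B-cell-like cells subtracted, *Atp1b1* in AT2-like cells was 735 CPM. Without TMM the median log2 fold change of all genes between epithelial cells and ECs moved from -0.05 to -0.53, and every member kept its call there. DESeq2 gave adjusted p of 0.525, 0.412 and 0.943 for *Aqp4* between epithelial types. Depth limits the AT1-like cells, of which a cluster of 73 had a median of 1195 UMIs, and levels of *Aqp4* and *Aqp3*, which rest on 175 and 249 UMIs.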
